A study of Arabidopsis thaliana with 8 samples.

Results

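Cytosolic ribosomes translate nuclear messages, and each ribosome holds single copies of most of its proteins, which form the small 40S and the large 60S subunit. In Arabidopsis each of these proteins is encoded by several similar genes, so the copies together supply it. In leaves the same cells also build plastid ribosomes from a separate set of proteins. The genes described here were 54 loci fixed by a list: RPS and RPL genes, RPSA, P0 and RACK1A. All 54 were among the 27172 genes of the deposited count tables, 23 of them placed in the 40S and 31 in the 60S subunit. The supplied locus table names 22 of the 54, and the other 32 are given by locus ID. Subunit and grouping of copies were assigned by hand for all 54, and BBC1, which the locus table words as a 40S protein, was placed in the 60S subunit. The 54 loci fell into 18 groups with more than 1 listed copy and 14 single loci. Another 164 loci of cytosolic ribosomal proteins were kept as a separate list.

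Arabidopsis thaliana Col-0 plants aged 3 weeks had their leaves infiltrated with 10 µM elf18 or with 10 mM MgCl2 as mock. Elf18 is part of a bacterial translation factor, EF-Tu, whose presence plants read as a sign of infection. Plants of both groups carried the transgene 35S:uORFsTBF1-LUC, a luciferase reporter behind the upstream open reading frames of the immune transcription factor TBF1 and under the constitutive 35S promoter. Each lysate pooled leaves of about 24 plants, 2 leaves from each, and gave 1 RNA-seq library and 1 ribosome footprint library, with 2 elf18 and 2 mock lysates and so 8 libraries in 4 groups of 2. Which footprint library shares a lysate with which RNA library was read from numbers in the sample IDs, a match that no label states, and ratios per lysate rest on it. Nothing in the labels says whether the 2 lysates of a group came from separate experiments, so p-values measure the spread between these lysates. The time from infiltration to harvest is not given in the sources used here.

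Depth over coding sequences was 9129108 and 12834781 counts in elf18 RNA, 12202536 and 6409393 in mock RNA, 6202819 and 5272725 in elf18 footprints and 4752563 and 6717946 in mock footprints. Replicates correlated across genes at r = 0.772 in elf18 RNA, 0.911 in mock RNA, 0.838 in elf18 footprints and 0.832 in mock footprints (log2 CPM). The median absolute log2 difference between replicates of the ribosomal protein genes was 0.302 in elf18 RNA and 0.193 in mock RNA. Over all genes, not matched by level, it was 0.740 and 0.402. In elf18 and mock footprints it was 0.403 and 0.284 for the ribosomal protein genes, against 0.694 and 0.913 over all genes. In these footprints 8 and 7 ribosomal protein genes differed between replicates by more than 1 log2 unit. The leaf label fits 6 of 6 photosynthesis markers, which summed to 15840 CPM or more in each library, while the 3 seed markers summed to 0 CPM in 7 libraries and 2.65 CPM in one elf18 footprint library, and the root marker was at 0. CPM values are counts scaled to library size with edgeR's TMM factors.

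The pooled weight of the 54 genes was lower with elf18 at both levels. They held 0.731% and 0.760% of coding-sequence counts in the elf18 RNA libraries, against 0.908% and 0.888% in mock. In footprints they held 0.529% and 0.502% with elf18, against 0.677% and 0.658% in mock. No elf18 library reached a mock library in either assay, but 2 against 2 libraries cannot give a two-sided exact permutation p below 0.333, and both differences had that p. The share was lower in both subunits: 40S genes held 0.314% ± 0.030 of elf18 RNA against 0.381% ± 0.009 of mock RNA, and 60S genes 0.431% ± 0.009 against 0.516% ± 0.005 (SD, n = 2 each). The 40S to 60S ratio of counts was 0.730 ± 0.085 in elf18 RNA and 0.738 ± 0.011 in mock RNA, and 0.767 ± 0.019 in elf18 footprints and 0.737 ± 0.014 in mock footprints (SD, n = 2 each). Lower shares were not particular to these genes, since 34 plastid ribosomal protein genes held 0.960% ± 0.018 of elf18 RNA and 1.18% ± 0.015 of mock RNA (SD, n = 2 each). A share depends on every other gene in the library, and in bulk leaves fewer cells of a type and less RNA per cell cannot be told apart. The TMM factors, which correct for that composition, were 0.931 and 0.883 in the elf18 RNA libraries and 0.995 and 0.997 in the mock RNA libraries.

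**Figure D1:**
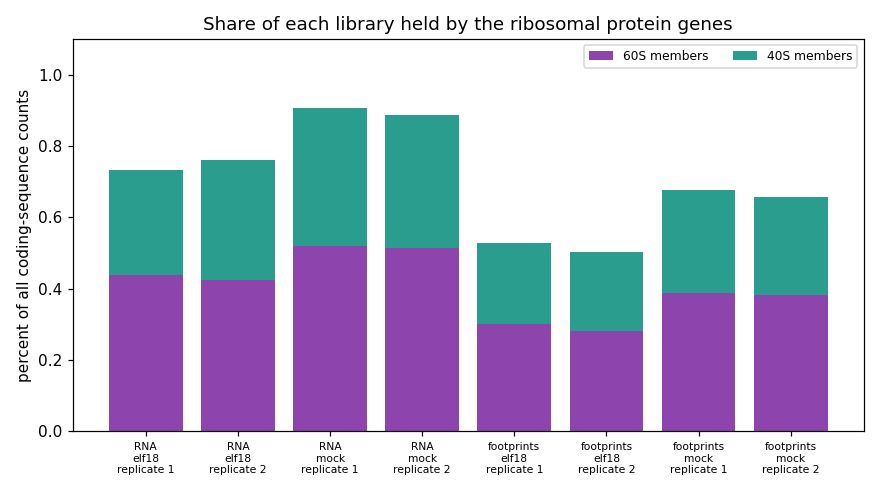
Percent of all coding-sequence counts held by the 31 genes of the 60S subunit (lower part of each bar) and the 23 of the 40S subunit (upper part), per library, with elf18 left of mock in each assay. The elf18 bars reach 0.731% and 0.760% in RNA and 0.529% and 0.502% in footprints, each below both mock bars of its assay.

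The first gene-level comparison asked which ribosomal protein messages changed in abundance with elf18, using exon counts. Calls came from the quasi-likelihood test of edgeR, adjusted by Benjamini-Hochberg over 15870 genes, at an adjusted p under 0.05. None of the 53 tested ribosomal protein genes passed in either direction, where 3.04% of all genes were called higher and 0.158% lower. Their changes were small: the range ran from -1.21 to 0.37 on the log2 scale, and the median was -0.15, beside -0.09 over all genes. Below 0 lay 44 of 53 (83.0%), beside 55.1% of all genes. Below the median of all genes lay 34 of 53, but 26 with DESeq2 and 19 with the replicate number as a block. At an unadjusted p under 0.05, 4 were lower and 0 higher, beside 1375 lower and 1151 higher of all 15870 genes. DESeq2 called 3 lower and 0 higher, beside 945 lower and 1193 higher of all 18346 genes it was run on, a share of lower calls close to that of the ribosomal protein genes. Both elf18 libraries lay below both mock libraries for 23 of 53 genes (43.4%, background 27.8%), and above them for 3 of 53 (5.66%, background 18.2%). Whether the group sits below or above the median of all genes depended on the setting: the distance was -0.06 here, 0.01 with DESeq2, 0.08 with the replicate number as a block, 0.09 without elf18 RNA replicate 1 and -0.17 among genes averaging 500 counts or more.

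The lowest change was at AT1G70600, a 60S gene with 56.0 and 33.6 CPM in elf18 RNA, against 106.0 and 100.6 CPM in mock RNA. Its log2 change was -1.21 ± 0.29 (SE, adjusted p = 0.135 by edgeR). RPS6B, a copy of the 40S protein that S6 kinase phosphorylates downstream of TOR, had 151 and 165 CPM in elf18 RNA, against 233 and 224 CPM in mock RNA (log2 change -0.53 ± 0.14 SE, adjusted p = 0.145 by edgeR). PGY1, a 60S gene known for its part in leaf patterning, had 123 and 96.4 CPM in elf18 RNA, against 159 and 175 CPM in mock RNA (log2 change -0.61 ± 0.18 SE, adjusted p = 0.145 by edgeR). In all 3 genes the elf18 libraries lay below the mock libraries. These 3 were the calls DESeq2 made (adjusted p = 0.000633, 0.000189 and 0.0102 in the order given), and edgeR called the same 3 when the fit was limited to 3708 genes averaging 500 counts or more, a limit added after the data were seen, where 4.5% of genes were called lower. AT2G17360, a 40S gene, came next by test statistic, with 99.2 and 79.1 CPM in elf18 RNA, against 126 and 125 CPM in mock RNA (adjusted p = 0.268 by edgeR).

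At the other end, RPL24B, a 60S gene known for reinitiation of translation after upstream open reading frames, had 109 and 99.7 CPM in elf18 RNA, against 74.5 and 86.9 CPM in mock RNA. Its log2 change of 0.37 ± 0.19 (SE) did not pass (adjusted p = 0.477 by edgeR). AT2G31610, AT3G09200 and RPL10A had log2 changes of 0.25 ± 0.16, 0.16 ± 0.11 and 0.20 ± 0.14 (SE) and did not pass either. RPL10A, a 60S protein known as a target of an antiviral receptor kinase, overlapped between groups, with 309 and 367 CPM in elf18 RNA against 313 and 275 CPM in mock RNA. On coding sequences in place of exons, again 0 of 53 passed in either direction by edgeR (background 2.59% higher and 0.117% lower), with 6 lower and 1 higher at an unadjusted p under 0.05, beside 1392 and 1057 of all 15441 genes. DESeq2 called 4 lower and 2 higher on coding sequences, beside 940 and 1103 of all 18027 genes. AT5G59240 had no RNA count in any library and at most 7 footprint counts, and was not tested.

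Leaving out 1 elf18 RNA library changed the count most. Without replicate 1, 9 ribosomal protein genes were called lower and 1 higher, and without replicate 2, 12 lower and 0 higher, but 2699 and 2258 of all genes were then called lower too, against 25 with both. With 1 library in a group, its spread is taken from the mock libraries, which are closer to each other.

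**Figure D2:**
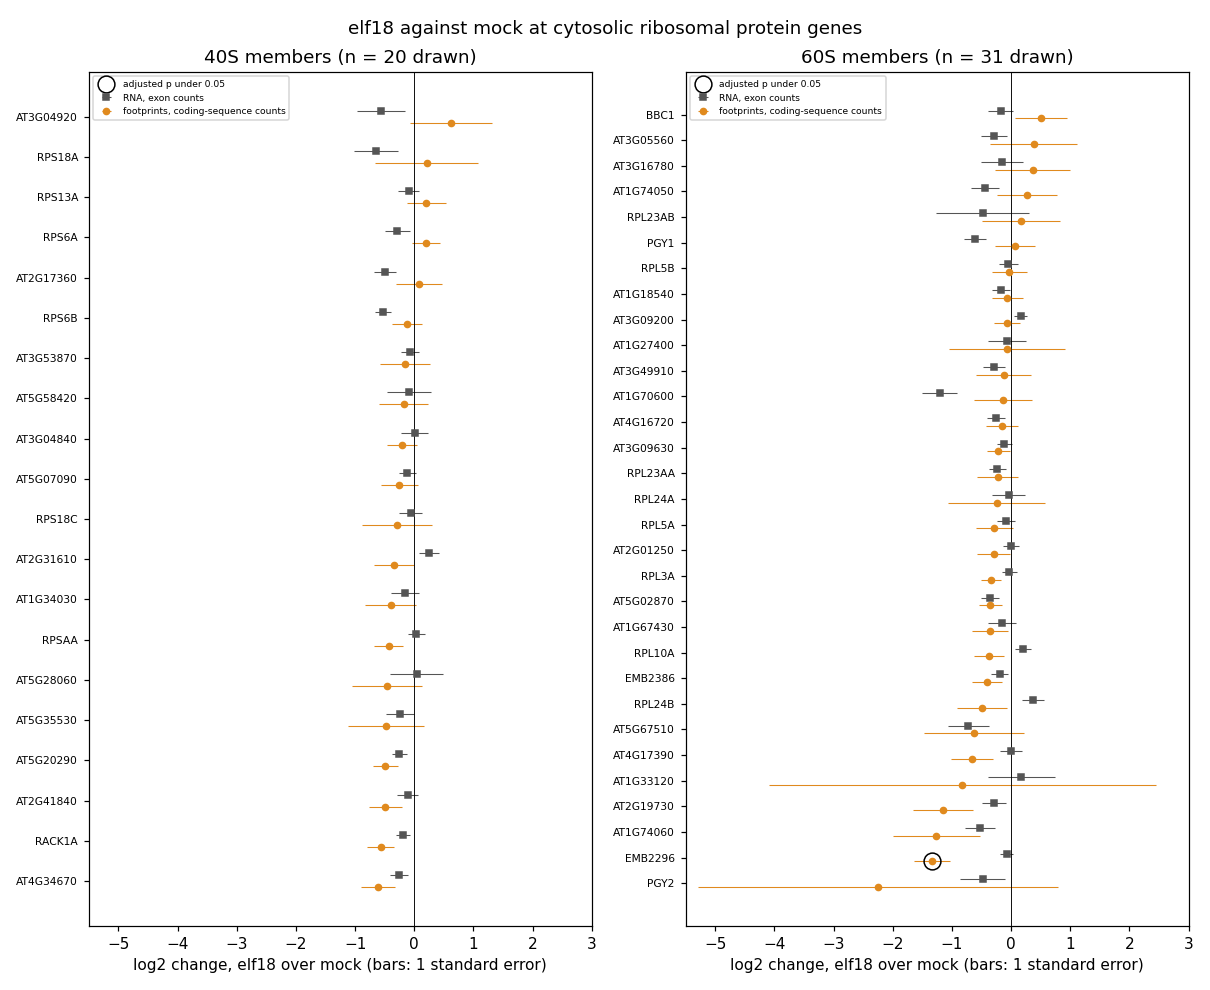
Log2 change of elf18 over mock for each tested gene, 40S genes on the left and 60S genes on the right, in order of the footprint change; squares are RNA on exons, circles footprints on coding sequences, bars 1 standard error, and a ring marks an adjusted p under 0.05 (edgeR); 2 of the 53 genes are not drawn. Most points lie left of 0 by less than 1 log2 unit, and EMB2296 carries the one ring.

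In footprints, which count the fragments that ribosomes protect, EMB2296 was the one ribosomal protein gene that passed the test. EMB2296 (AT2G18020) is a 60S gene named for an embryo-defective mutant. It had 133 and 73.8 CPM in elf18 footprints, against 296 and 216 CPM in mock footprints, from 836 and 389 counts against 1511 and 1627. Footprints fell by 1.34 ± 0.30 on the log2 scale, to 0.396 of the mock level (SE, adjusted p = 0.0328 by edgeR over 14446 genes). Its RNA was close to level, with 300.1 and 310 CPM in elf18 against 329 and 312 CPM in mock on exons (log2 change -0.07 ± 0.11 SE). One call in 53 is 1.89%, beside a background of 0.166% called lower, and 0 were called higher, beside 2.59%. DESeq2 called the same gene (adjusted p = 0.000147). Among genes averaging 500 counts or more EMB2296 was again the 1 gene of 24 called lower, at a background of 4.22%. The call was lost without elf18 footprint replicate 2 (log2 change -0.93, adjusted p = 0.165) and with a minimum mean of 50 counts (adjusted p = 0.0881).

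The other genes leaned the same way without passing. In footprints 41 of 53 changes (77.4%) lay below 0, beside 49.3% of all genes. The median was -0.25, beside 0.01 over all genes, with -0.23 in 40S genes and -0.25 in 60S genes. Among the tested genes that the locus table names the medians were -0.07 for 9 40S genes and -0.28 for 13 60S genes. Both elf18 libraries lay below both mock libraries for 18 of 53 genes (34%, background 18.8%) and above for 2 (3.77%, background 20.2%). The distance from the median of all genes was between -0.51 and -0.11 under every alternative run. RACK1A, a scaffold protein on the 40S subunit, had 218 and 295 CPM in elf18 footprints, against 439 and 305 CPM in mock footprints (log2 change -0.57 ± 0.23 SE, adjusted p = 0.445 by edgeR). AT2G19730, a 60S gene, had 43.4 and 32 CPM in elf18 footprints, against 124 and 40.2 CPM in mock footprints (log2 change -1.15 ± 0.50 SE, adjusted p = 0.553 by edgeR). Without mock footprint replicate 2 the log2 changes of RACK1A and AT2G19730 were -0.80 and -1.74, and the median of all genes moved by 0.25. Without elf18 footprint replicate 2 they were -0.76 and -0.90. AT5G20290, a 40S gene, had 199 and 158 CPM in elf18 footprints, against 252 and 237 CPM in mock footprints (adjusted p = 0.571 by edgeR).

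RPSAA, the 40S protein related to the laminin receptor of animals, overlapped between groups, with 296 and 180 CPM in elf18 footprints against 343 and 287 CPM in mock footprints (adjusted p = 0.782 by edgeR). Among the highest footprint changes by test statistic were BBC1, AT3G04920 and RPS6A, with log2 changes of 0.50 ± 0.44, 0.62 ± 0.70 and 0.19 ± 0.24 (SE); none passed. Photosynthesis markers moved the same way: 6 of 6 had lower footprints with elf18 and 3 of them, RBCS1A, PSBO1 and LHCB3, passed the test, with a summed level of 16152 and 15840 CPM in elf18 footprints against 21954 and 20588 CPM in mock footprints. Markers of dividing cells summed to 29.8 and 25.2 CPM in elf18 footprints against 74.9 and 32.5 CPM in mock footprints. Of the 6 of them tested in footprints, 4 had changes below 0 and 0 passed the test. Guard cell markers summed to 3207 and 3186 CPM in elf18 footprints against 2684 and 2701 CPM in mock footprints. Most of these counts were those of TGG1. TGG1 had a log2 change of 0.22, and KAT1, FMA and MYB60 had changes of -0.28, -0.63 and -0.12. Of the 4 markers, 0 passed the test. Vascular markers overlapped, with 340.0 and 258 CPM in elf18 footprints against 337 and 260.5 CPM in mock footprints. The part of any of these marker groups in the ribosomal protein result was not tested.

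**Figure D3:**
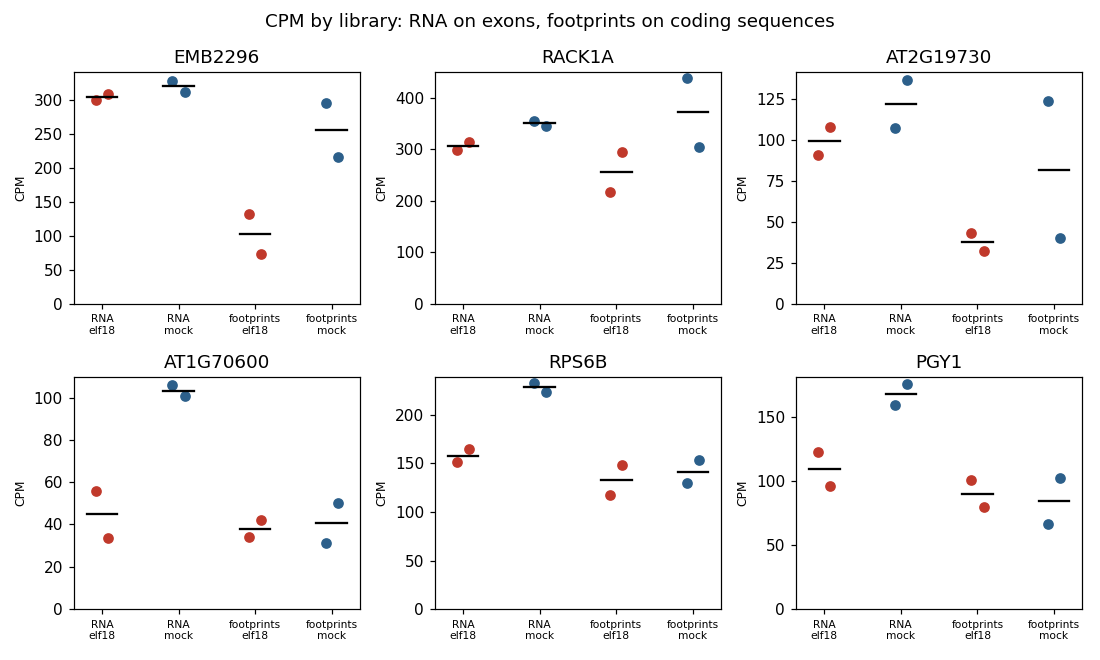
CPM in each library (points) with the group mean (line) for the 3 genes with the lowest footprint changes by test statistic, above, and the 3 with the lowest RNA changes by test statistic, below; RNA is counted on exons and footprints on coding sequences, elf18 left of mock. EMB2296 is at 133 and 73.8 CPM in elf18 footprints and above 200 CPM in both mock footprint libraries, while its RNA points lie close together.

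Translational efficiency, the change of footprints beyond that of RNA, was tested as the assay-by-treatment interaction in 1 fit of the 8 libraries. No ribosomal protein gene passed, and no gene at all of 16177 did by edgeR (a background of 0% in both directions); DESeq2 called 30 genes higher and 27 lower, 1 of the ribosomal protein genes among the lower. At an unadjusted p under 0.05, 2 of 53 ribosomal protein genes were lower and 0 higher, against 252 lower and 473 higher of all genes. EMB2296 had a log2 efficiency change of -1.21 ± 0.34 (SE, adjusted p = 1 by edgeR and 0.0343 by DESeq2), and RPL10A one of -0.62 ± 0.28 (SE). The log2 ratio of footprint to RNA CPM of EMB2296 was -1.19 and -2.11 in the elf18 lysates, against -0.21 and -0.59 in the mock lysates. RPL24B and AT2G31610, the genes with the highest RNA changes, had efficiency changes of -0.91 ± 0.48 and -0.78 ± 0.40 (SE). By test statistic AT1G70600, PGY1, RPS6A and BBC1 stood at the other end, the first, second and last of them with 1.14 ± 0.57, 0.76 ± 0.41 and 0.88 ± 0.50 (SE). RNA enters both of these quantities, so low RNA and high efficiency in a gene are not separate observations.

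Both copies of RPS6 had efficiency changes above 0 that did not pass, 0.60 ± 0.33 at RPS6A and 0.54 ± 0.33 at RPS6B (SE). RPS6A had a log2 footprint to RNA ratio of 0.34 and 0.34 in the elf18 lysates, against -0.29 and -0.21 in the mock lysates, so its groups did not overlap. RPS6B had -0.20 and -0.35 in the elf18 lysates, against -0.98 and -0.69 in the mock lysates, also without overlap. Over all ribosomal protein genes 8 of 53 had both elf18 ratios above both mock ratios (15.1%, background 23.4%) and 9 of 53 had both below (17%, background 11.9%). The median efficiency change was -0.14, beside 0.16 over all genes. It was -0.19 in 40S and 0.00 in 60S genes, but 0.32 and -0.16 when only the 9 and 13 tested genes that the locus table names were used, so the order of the subunits depended on which genes were counted.

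The kinases above RPS6 were read as a separate list. S6K2 had 207 and 176 CPM in elf18 RNA, against 44.4 and 48.0 CPM in mock RNA on coding sequences, and rose by 2.03 ± 0.18 on exon counts (log2, SE, adjusted p = 0.00322 by edgeR). Its footprints had 104 and 92.2 CPM with elf18, against 12.3 and 26.4 CPM in mock, and rose by 2.30 ± 0.45 (log2, SE, adjusted p = 0.014 by edgeR). S6K1 and TOR did not pass in RNA (log2 changes 0.25 ± 0.27 and -0.37 ± 0.27, SE) or in footprints (0.52 ± 0.74 and 0.01 ± 0.21, SE). The other lists held 154 other cytosolic ribosomal protein genes, 34 plastid ribosomal protein genes and 24 ribosome assembly genes tested in RNA. None of them passed in either direction. At an unadjusted p under 0.05, 11, 7 and 0 of them were lower and none higher, beside 1375 lower and 1151 higher of all 15870 genes. In footprints none of 147, 34 and 24 passed, and 8, 3 and 0 were lower and 1, 1 and 0 higher at an unadjusted p under 0.05, beside 415 lower and 793 higher of all 14446 genes. DESeq2 called 9 of 156, 6 of 34 and 1 of 25 of these lists lower in RNA and 4 of 145, 1 of 34 and 0 of 23 lower in footprints, and none higher. Over all genes DESeq2 called 945 lower and 1193 higher of 18346 in RNA, and 210 lower and 631 higher of 18414 in footprints.

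In both treatments many ribosomal protein genes had few footprints for the RNA present. This comparison asked, within each treatment, how footprints stood relative to RNA of the same coding sequence. Gene length enters both counts, and whether it still weighed on the ratio was not tested. In elf18 leaves 15 of 53 genes were called lower in footprints than in RNA (28.3%, background 2.68%) and 0 higher (background 2.95%). In mock leaves 12 of 53 were lower (22.6%, background 1.87%) and 0 higher (background 1.56%). The median log2 ratio was -0.81 in elf18 leaves and -0.79 in mock leaves, beside 0.07 and -0.14 over all genes. In 28 of 53 genes all 4 footprint libraries had a lower CPM than all 4 RNA libraries (52.8%, background 7.34%), and in 1 gene they had a higher one (1.89%, background 6.68%).

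Among genes averaging 500 counts or more, 18 of 37 were lower in either treatment (48.6%, background 19.9% with elf18 and 14.8% in mock). How multiply matching reads were counted is not given in the sources used here, and their part in these ratios was not tested.

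The 10 genes called in both treatments made up 66.7% of the elf18 calls and 83.3% of the mock calls, 4 of them in the 40S and 6 in the 60S subunit. Over all genes the shared calls were 53.8% and 77.2% of these lists. Across the 53 genes the mean ratio in elf18 lysates and in mock lysates correlated with Pearson r = 0.69 and Spearman rho = 0.65, a description across genes whose values share their libraries with each other. RPL23AA, a 60S protein near the exit of the ribosomal tunnel, had 74.6 and 56.3 CPM in elf18 footprints, against 164 and 189 CPM in elf18 RNA on coding sequences. In mock leaves it had 70.3 and 79.2 CPM in footprints, against 196 and 232 CPM in RNA. Its log2 ratio was -1.43 ± 0.25 with elf18 and -1.51 ± 0.25 in mock (SE, adjusted p = 0.00180 and 0.00172 by edgeR), without overlap in either treatment. EMB2386, a 60S gene named for an embryo-defective mutant, had 116 and 147 CPM in elf18 footprints, against 297 and 391 CPM in elf18 RNA, and 189 and 152 CPM in mock footprints, against 381 and 350.1 CPM in mock RNA. These 2 genes were called in both treatments under all 14 alternatives.

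The 4 lowest ratios in mock leaves were those of RPS18A, AT3G05560, PGY2 and AT1G27400, with log2 values of -2.26 ± 0.61, -2.16 ± 0.45, -2.05 ± 1.88 and -1.97 ± 0.64 (SE), of which AT3G05560 passed. RPS18A, a 40S gene whose mutant has pointed first leaves, had 5.7 and 33.8 CPM in mock footprints, against 79.2 and 112 CPM in mock RNA. PGY2 and its copy AT1G33120 had 0 footprint counts in mock replicate 1, and of the RNA exon counts of PGY2 only 15.1% on average fell in its coding sequence, so both were too sparse on coding sequences to read. The lowest ratios in elf18 leaves were at AT1G33120, AT1G27400, AT4G17390 and AT3G05560, with -2.10 ± 2.17, -2.08 ± 0.65, -1.94 ± 0.25 and -1.68 ± 0.45 (SE), of which AT4G17390 and AT3G05560 passed.

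Some genes kept as many footprints as RNA. AT5G02870, a 60S gene, had 282 and 280.1 CPM in elf18 footprints, against 203 and 215 CPM in elf18 RNA, and 385 and 315 CPM in mock footprints, against 274 and 278 CPM in mock RNA. It is the one gene in which all 4 footprint libraries lay above all 4 RNA libraries, and its log2 ratios of 0.43 ± 0.18 and 0.34 ± 0.18 (SE, elf18 and mock) did not pass. RPL3A, a protein near the peptidyl transferase centre of the 60S subunit, had ratios of 0.03 ± 0.16 with elf18 and 0.32 ± 0.16 in mock (SE). AT1G34030 had the next highest ratio in mock, 0.22 ± 0.39 (SE), and in elf18 RPS6A and AT3G04920 followed AT5G02870 with 0.34 ± 0.24 and 0.31 ± 0.64, ahead of AT3G16780 with 0.18 ± 0.60 (SE). RACK1A was level in mock, with -0.03 ± 0.20, and AT3G09200, called in both, had -1.05 ± 0.17 with elf18 and -0.79 ± 0.17 in mock (SE).

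The median ratio by lysate was -0.71 and -0.89 in the elf18 lysates and -0.78 and -0.69 in the mock lysates, beside 0.24, 0.24, -0.29 and -0.02 over all genes in the same order. The 60S median was below the 40S median in each lysate, by the least in elf18 replicate 2 (-0.889 against -0.803) and by the most in mock replicate 1 (-0.996 against -0.474). The subunits were not tested against each other, and among the genes that the locus table names the mock medians were -0.80 for 60S and -0.83 for 40S genes, and the elf18 medians -1.16 for 60S and -0.59 for 40S genes. Ratios followed neither the RNA level nor the share of exon counts in the coding sequence closely (Spearman rho = 0.10 and 0.06 across the 53 genes, Pearson r = 0.35 and 0.34).

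**Figure D4:**
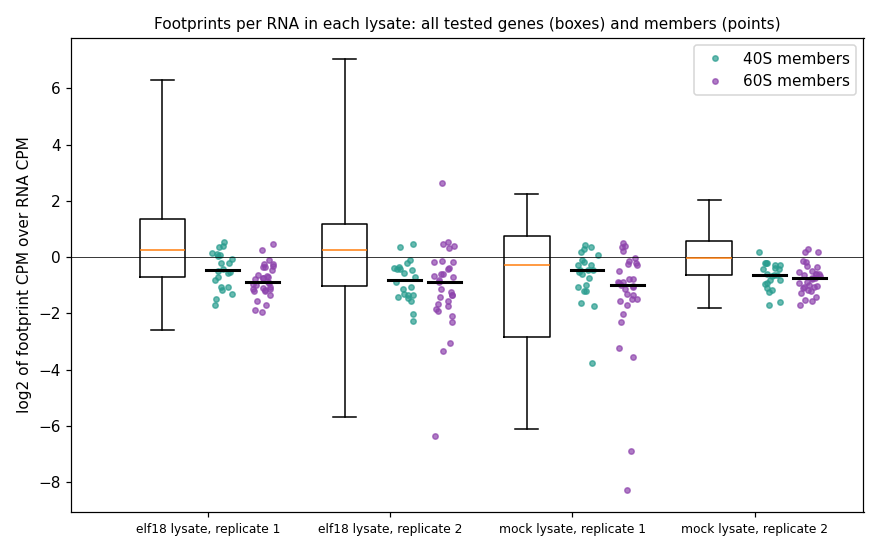
Log2 ratio of footprint CPM to RNA CPM on coding sequences in each lysate, elf18 left of mock; boxes show the 25th, 50th and 75th percentile of 16177 tested genes with whiskers at the 5th and 95th, points are the 53 ribosomal protein genes by subunit, and thick lines their medians. The medians of both subunits lie below the median of all genes in each of the 4 lysates.

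Low footprints per RNA were also found outside these 54 genes. Of 153 other cytosolic ribosomal protein genes 27 were called lower with elf18 and 22 in mock, and none higher, with median log2 ratios of -1.08 and -1.12. Of 34 plastid ribosomal protein genes 15 and 18 were called lower, with medians of -0.71 and -0.74. All 6 photosynthesis markers were called lower in both treatments, with medians of -1.66 and -1.18. Of 24 ribosome assembly genes none was lower and 1, AT3G11964, was higher in both treatments, by 1.88 ± 0.43 with elf18 and 1.79 ± 0.43 in mock (log2, SE, adjusted p = 0.0133 and 0.0257 by edgeR). TOR was higher by 1.83 ± 0.24 with elf18 and by 1.28 ± 0.23 in mock (log2, SE, adjusted p = 0.000124 and 0.00363 by edgeR). The count in mock leaves rests on single libraries: it was 3 without mock footprint replicate 1, 6 and 7 without mock RNA replicates 1 and 2, and 19 without elf18 RNA replicate 2. Of all genes 168, 216, 221 and 397 were then lower, in the same order, against 302 with every library. With the lysate as a block 20 genes were lower with elf18 and 18 in mock, where 586 and 501 of all genes were lower against 433 and 302 without the block.

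Copies of one protein were compared by the share each held of the group's coding-sequence counts in a library. Shares are counts, not corrected for coding length, and near-identical copies may exchange reads, since how multiply matching reads were counted is not given in the sources used here. RPS6A held 61.8% and 65.4% of the RPS6 footprints with elf18 and 62.1% and 55.5% in mock, against 52.5% and 53.9% of the RPS6 RNA with elf18 and 50.4% and 47.2% in mock. Its footprint share thus lay above its RNA share in all libraries, and RPS6B's below. RPL5B, a 60S protein that binds 5S rRNA, held 46.4% and 53.8% of the pair's footprints with elf18 and 47.7% and 43.7% in mock, against 38.7% and 34.02% of RNA with elf18 and 39.3% and 32.3% in mock. RPL23AB held 21.6% and 36.9% of footprints with elf18 and 23.3% and 24.1% in mock, against 21.3% and 2.73% of RNA with elf18 and 19.4% and 12.3% in mock, so the elf18 RNA replicates differed widely and replicate 1 left a gap of under 1 percentage point.

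Of the 18 groups, footprint and RNA shares were apart in every library for all copies in 5 and for some copies in 3; they overlapped in 9, and 1 had a library with 0 counts. AT4G16720 held 65.1% and 73.2% of its pair's footprints with elf18 and 66.7% and 56.2% in mock, against 44.7% and 48.3% of RNA with elf18 and 46.6% and 54.5% in mock, and AT4G17390 held the rest. AT3G16780, the minor copy beside EMB2386, held 14.2% and 24.2% of footprints with elf18 and 11.1% and 14.9% in mock, against 7.69% and 7.94% of RNA with elf18 and 6.88% and 8.74% in mock. In groups of 3, AT1G34030 held 56.0% and 38.1% of footprints with elf18 and 62.2% and 46.3% in mock, against 28.4% and 28.7% of RNA with elf18 and 24.7% and 21.3% in mock, beside RPS18A and RPS18C. AT5G07090 lay above its RNA share and AT3G53870 below it in all libraries. The RPL24 pair was among those that overlapped. No test was run on shares, and no background of other gene families was computed for them.

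**Figure D5:**
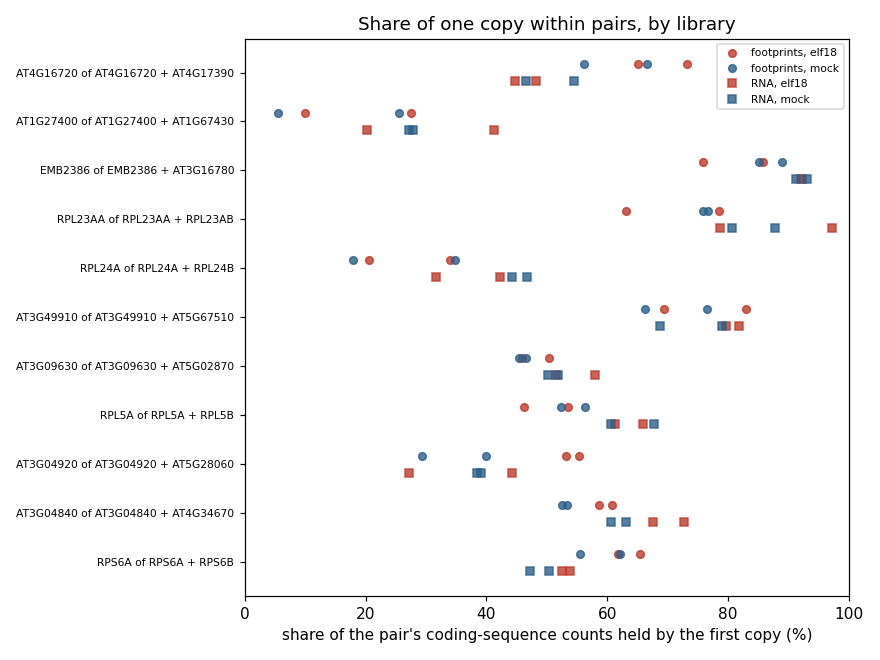
Share of a pair's coding-sequence counts held by the first named copy, one row per pair and one point per library: circles footprints, squares RNA, red elf18, blue mock. In the RPS6 row the footprint points lie between 55.5% and 65.4% and the RNA points between 47.2% and 53.9%; a pair with too few counts (PGY2 and AT1G33120) and a pair with an unexpressed copy (AT5G59240) are left out, as is 1 other pair.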

How the data were processed

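The authors deposited whole-number read counts per gene, over exons for the 4 RNA libraries and over coding sequences for all 8 libraries; these counts were not normalised. HTSeq, Bowtie2 2.0, CASAVA 1.8.2 and the build TAIR10 are named in the submitters' processing notes, HTSeq without a version. Filtering of reads, strand setting and treatment of multiply matching reads are not given in the sources used here. Footprint counts were blank for 62 genes, which were kept out of coding-sequence tests.

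All fits ran in R 4.3.3 with edgeR 4.0.16 and limma 3.58.1: TMM factors, filterByExpr with a minimum of 10 counts, and the quasi-likelihood test over all genes, called at a Benjamini-Hochberg adjusted p under 0.05. RNA and footprint comparisons used the 2 groups concerned; translational efficiency and footprints against RNA came from 1 fit with assay, treatment and their interaction. Ratios per lysate added 0.5 counts. DESeq2 1.42.0, RLE factors, other filters, blocks and leaving out each library were alternatives. In simulated data the fits recovered 12% of 2-fold changes in RNA on exons and 7% in footprints. They recovered 0% in RNA on coding sequences and 0% in efficiency. Of 4-fold changes they recovered 42%, 34%, 14% and 17% in the same order. The number of unchanged genes called was 11, 2, 0 and 2, again in that order. The changed genes were drawn from all genes above a low level, not matched to the ribosomal protein genes in level or spread. The rates are thus not those of the ribosomal protein genes, for which recovery was not measured. A gene that did not pass may still have changed. RNA and footprint libraries were paired by the lysate number in the sample IDs, a match that no label states (per the labels' protocols each lysate was divided); deviations from group means correlated at r = -0.0026 with elf18 and -0.012 in mock (16177 genes). No label says whether replicate numbers pair elf18 with mock. Replicate 2 carries lysate number 3 in both treatments, while replicate 1 carries number 1 with elf18 and 2 in mock.

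Locus names came from a RefSeq table used for names only. Called genes were named, else up to 4 per direction by test statistic; the 4 highest and lowest ratios; the RPS6 copies, RACK1A, RPSAA and AT3G09200; copies with the largest and smallest shares; called members of other lists; S6K1, S6K2 and TOR. Genes and lists were chosen with earlier results of these data known. Counting error alone would let 3 counts be read as 0, which is 0.248 to 0.588 CPM here; spread between replicates was larger. The values of 1 pair of 40S copies are not reported here; both are kept in the counts and medians.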

Additional observations from a re-analysis of the deposited data

How the results depend on the processing

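With RLE factors no count moved by more than 1.5 times. In RNA on exons, ribosomal protein genes called lower numbered 0, but 3 with DESeq2, 3 among genes averaging 500 counts or more and 1 with the replicate number as a block; leaving out 1 library gave 0 to 12 lower, 0 to 1 higher and medians of -0.24 to -0.13. On coding sequences 0 were called, but DESeq2 gave 2 higher and 4 lower, the 500-count limit 2 lower and the replicate block 2 lower; leaving out 1 library gave 0 to 8 lower, 0 to 1 higher and medians of -0.28 to -0.11. In footprints 1 was lower, beside 24 of all 14446 genes, and 0 with a minimum mean of 50 counts, beside 18 of all 9817. Medians with 1 footprint library left out were -0.26 to -0.11. For efficiency DESeq2 gave 1 lower, beside 27 of all 19065 genes, and leaving out 1 library gave medians of -0.20 to 0.00. Footprints below RNA numbered 25 with elf18 and 24 in mock with DESeq2, and 10 to 18 and 3 to 19 with 1 library left out (medians -0.98 to -0.73 and -0.90 to -0.75); the 500-count limit gave 1 gene higher in mock, RPL3A, and a mock median of -0.56. DESeq2 also called more of all genes lower in footprints than in RNA, 1009 with elf18 and 655 in mock, of 19065. The main edgeR fit called 433 and 302 of 16177 lower, with 15 and 12 of the 53 ribosomal protein genes among them. Calls over all genes also moved when 1 library was left out. Replicate numbers were not taken to pair elf18 with mock. The lysate block changed no call at EMB2296 (efficiency adjusted p = 0.077 by edgeR). The library share differed by -0.15 percentage points in both assays, and by -0.28 in RNA and -0.25 in footprints relative to counts without the 100 most abundant genes; leaving out 1 library gave -0.17 to -0.14 in each. The replicate block and leaving out elf18 RNA replicate 1 moved the median of all genes in RNA on exons by -0.16 and -0.13 (log2), and on coding sequences by -0.19 and -0.15 (-0.12 without replicate 2). The 500-count limit was chosen after seeing the data. The causes were not tested. Depth was 4752563 to 12834781 counts.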
